A study of Mus musculus with 9 samples.

Results

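The genes of the TNF superfamily described here were 14 ligands, 22 receptors and 9 adaptors that carry receptor signals into the cell, 45 protein-coding genes of the 27370 in the table. They were chosen by name: genes named Tnfsf or Tnfrsf with a number, Traf1 to Traf7, and Tnf, Lta, Ltb, Ltbr, Cd40, Fas, Birc2 and Birc3. Earlier results of these data were known when the choice was made. Their RNA was read in 9 bulk libraries of sorted mouse stromal cells. The first group was red pulp fibroblasts (RPF, the tdTomato-labelled fibroblasts of the splenic red pulp) from mice given diphtheria toxin, called RPF depleted, in 3 libraries. The second was RPF from untreated mice, called RPF steady, in 3 libraries, and the last was fibroblastic reticular cells (FRC, the tdTomato-negative stromal network of lymph nodes) from untreated mice, in 3 libraries. Every mouse, controls included, was 4 months old and carried Wt1CreERT2, RosatdTomato and CD64DTR. Cre expressed from Wt1 marks the RPF with tdTomato, and the toxin receptor on CD64-expressing cells makes macrophages the cells that the toxin kills. Each library pooled 2 mice, so p-values measure the spread between pools, and 45000 cells were collected per group. The labels give 6 mice to each of the 3 groups but 12 mice in all, so the untreated RPF and FRC came from shared animals. Which libraries shared them is not labelled, and the tests treat all libraries as independent. No label gives the toxin's dose, the time after it or how Cre was induced. Toxin-treated mice without CD64DTR were not analysed here, so the toxin and the loss of CD64-expressing cells cannot be told apart.

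Ligands of the family are mostly trimeric proteins on the cell surface or shed from it. A receptor without a death domain, such as TNFR2, RANK, CD40 or the lymphotoxin beta receptor, recruits TRAF adaptors and the ubiquitin ligases cIAP1 and cIAP2, and these lead to the classical and the alternative NF-kB pathways. A receptor with a death domain, such as TNFR1, Fas or DR6, can also engage caspases or RIP kinases. In spleen and lymph node, stromal cells answer lymphotoxin and TNF through these receptors during organ development, and they in turn supply lymphocytes and myeloid cells with family ligands such as BAFF and RANKL.

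Promoters were printed for the 3 members with the largest called rise in RPF depleted, Tnfsf11, Tnfrsf12a and Tnfrsf21. For Tnfrsf9, which was not called, the window that held a kappaB match beside an AP-1 match was printed. Each runs 5′ to 3′ on the gene's strand from 250 bases before to 50 bases after the RefSeq gene start in GRCm38.p6, the assembly of mm10. Capitals mark every match, on either strand, to the kappaB consensus, to TGANTCA (AP-1), to TATAAA or to GGGCGG (GC box).
Tnfsf11, chr14:78307994-78308293, minus strand: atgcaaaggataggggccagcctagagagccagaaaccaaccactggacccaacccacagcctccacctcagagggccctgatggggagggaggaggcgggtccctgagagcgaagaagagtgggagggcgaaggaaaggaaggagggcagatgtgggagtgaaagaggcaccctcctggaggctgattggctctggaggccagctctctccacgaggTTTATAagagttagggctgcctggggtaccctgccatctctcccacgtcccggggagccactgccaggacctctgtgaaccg
Tnfrsf12a, chr17:23677400-23677699, minus strand: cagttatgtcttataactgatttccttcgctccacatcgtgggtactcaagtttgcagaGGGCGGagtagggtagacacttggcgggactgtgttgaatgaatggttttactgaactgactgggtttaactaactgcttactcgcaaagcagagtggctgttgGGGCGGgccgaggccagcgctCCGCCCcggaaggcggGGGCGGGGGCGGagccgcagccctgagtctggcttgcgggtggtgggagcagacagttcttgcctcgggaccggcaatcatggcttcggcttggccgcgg
Tnfrsf21, chr17:43016305-43016604, plus strand: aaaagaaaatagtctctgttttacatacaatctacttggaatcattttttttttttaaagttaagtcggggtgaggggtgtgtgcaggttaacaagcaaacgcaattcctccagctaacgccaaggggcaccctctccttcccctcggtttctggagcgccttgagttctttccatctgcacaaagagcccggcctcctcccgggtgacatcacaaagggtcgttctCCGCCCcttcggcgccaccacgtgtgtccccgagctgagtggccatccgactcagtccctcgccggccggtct
Tnfrsf9, chr4:150927749-150928048, plus strand, the second of its RefSeq starts: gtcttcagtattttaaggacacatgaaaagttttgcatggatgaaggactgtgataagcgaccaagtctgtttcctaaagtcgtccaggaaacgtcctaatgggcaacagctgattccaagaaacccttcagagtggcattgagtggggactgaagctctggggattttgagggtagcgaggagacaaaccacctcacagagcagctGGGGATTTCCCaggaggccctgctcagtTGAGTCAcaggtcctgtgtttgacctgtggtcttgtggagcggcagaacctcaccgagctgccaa

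The Tnfsf11 window held TATAAA on the opposite strand 32 bases before the start, the Tnfrsf12a window held GC boxes at 191, 87, 66, 50 and 44 bases before it, and the Tnfrsf21 window held 1 GC box at 23 bases before it. The printed Tnfrsf9 window held overlapping kappaB matches at 43 and 42 bases before the start, and an AP-1 match at 15 bases. The window of the first Tnfrsf9 start held neither motif. RefSeq promoters were matched for 38 of the 45 members, as 43 windows. Over the 8 members that rose in RPF depleted, the 9 windows held 0 kappaB matches, 1 AP-1 match (Fas, 211 bases before the start), 1 TATAAA and 5 with a GC box. Among 32544 distinct mouse promoter windows of the same 300 bases, 4.53% held the kappaB consensus, 7.79% TGANTCA, 13.6% TATAAA and 35.9% the GC box. The kappaB consensus was also present in the windows of Ltb, Tnfrsf8 and Traf3, and the Tnfrsf8 window held an AP-1 match as well. AP-1 matches also lay in the windows of Tnfsf13 and Tnfsf14, and in both windows of Tnfsf13b, which was called lower in RPF depleted. A letter match describes the window and says nothing about binding.

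Libraries held 25414645 to 43879806 counts, and values below are CPM, each gene's share of a library's counts scaled to a common depth by TMM, which compares samples for 1 gene but not genes with each other. The labelled cells were checked against markers: Tcf21, a transcription factor of spleen stroma, averaged 213 CPM in RPF depleted, 715 in RPF steady and 2.69 in FRC, while Ccl21a, a chemokine of lymph node FRC, averaged 0.645, 0.571 and 1133 CPM. Pdpn, the gp38 used in staining, was near 0 in RPF, at 0.0732 CPM in RPF depleted and 0.098 in RPF steady, against 74.0 in FRC. Libraries RPF steady 1 and FRC steady 1 held 24 and 69 counts from Y-linked genes, while the other 7 held 2315 to 6124, and a fit with a term for those libraries stands among the alternatives. Red pulp macrophage markers summed to 80.7 to 118 CPM in RPF depleted, with 4 of 11 at 0 counts, Adgre1 and C1qa included, against 280.7 to 329.5 CPM in RPF steady with none at 0. In FRC they summed to 80.66 to 94.28 CPM with 1 at 0. Mertk alone gave most of the RPF depleted sum, at 89.2 CPM in RPF depleted against 83.9 CPM in RPF steady (edgeR adjusted p = 0.849), while 7 of the 10 markers tested were called lower, among them C1qb at 0.423 CPM in RPF depleted against 48.4 CPM in RPF steady (adjusted p = 0.0099). In bulk RNA, fewer cells of a type and less RNA per cell cannot be told apart, and the part of such cells in the results below was not tested. Other marker lists moved with depletion too. Pericyte and smooth muscle markers summed to 1808 to 2234 CPM in RPF depleted, against 705.1 to 1067 CPM in RPF steady, with Mcam, Des and Notch3 of 6 called higher and Rgs5 at 0.111 and 0.137 CPM. Red pulp fibroblast markers summed to 493.6 to 628.3 CPM in RPF depleted, against 1245 to 1495 CPM in RPF steady, with 3 of 6 called lower, Tcf21 among them. B cell and plasma cell markers summed to 82.39 to 120.5 CPM in RPF depleted, against 182.3 to 377.2 CPM in RPF steady, and endothelial markers to 35.02 to 41.28 CPM, against 66.09 to 177.4 CPM. Their part in the family's differences was not tested either.

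A larger share of receptors and adaptors than of ligands reached a mean of 10 CPM in both RPF groups. A mean of at least 10 CPM was reached by 9 of 22 receptors in RPF depleted, 7 in RPF steady and 6 in FRC, and by all 9 adaptors in each group. Among the 14 ligands it was reached by 2 in RPF depleted, 2 in RPF steady and 5 in FRC. Per kilobase of deposited transcript length, Tnfrsf1a (TNFR1) stood first among members in both RPF groups, at 633 CPM per kilobase in RPF depleted and 526 in RPF steady, and second in FRC at 811, after Birc3 (cIAP2) at 1011. Tnfrsf12a was the second member of RPF depleted, at 549 CPM per kilobase. These lengths are the deposited median transcript lengths, 450 bases for Ltbr, so levels per length are rough. Lta and Tnfrsf25 had 0 counts in all 9 libraries. Testing covered 39 members, and the other 6 did not pass the filter (Lta, Tnfsf4, Tnfsf14, Tnfrsf8, Tnfrsf17 and Tnfrsf25). Among the 39, 20 cleared the filter's 0.251 CPM in every library of all 3 groups, and 9 cleared it so in 1 group only, so counts over the 39 are given as description.

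**Figure D1:**
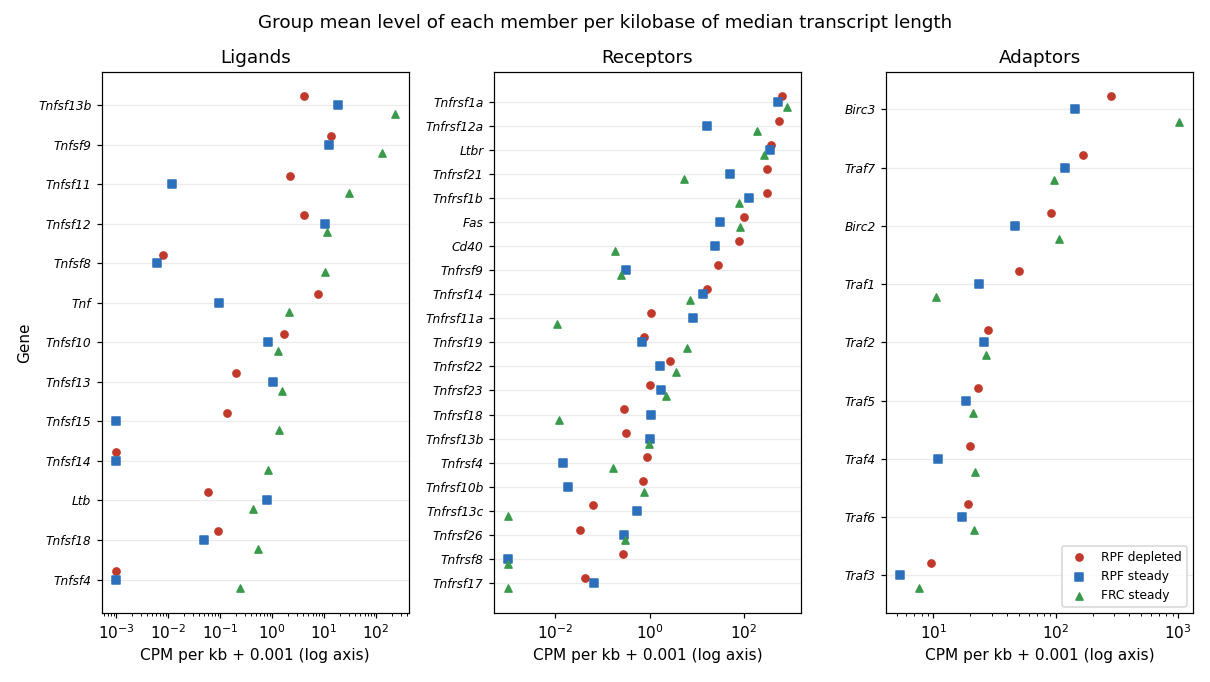
Mean level of the members in each group in CPM per kilobase of deposited transcript length, on a log axis, with 0.001 added, for RPF depleted, RPF steady and FRC steady. Lta and Tnfrsf25, at 0 counts, are left out. Tnfrsf1a, Ltbr and Birc3 stand among the highest members in all 3 groups, while Tnfrsf21 is high in RPF depleted. Tnfrsf12a is at 549 CPM per kilobase in RPF depleted, 16.5 in RPF steady and 186 in FRC.

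The first comparison asked what differed in RPF when CD64-expressing cells had been depleted. Genes for Fn14, DR6, TNFR2 and Fas rose, as did RANKL, the adaptor TRAF1 and both cIAPs, and the ligands BAFF and TWEAK fell. In edgeR's quasi-likelihood test, called at a threshold of 0.05 on p adjusted (Benjamini-Hochberg) over all 15103 genes, 8 of 39 members were higher in RPF depleted and 2 were lower. Of all genes tested, 11.1% were called higher, 9.96% lower and 21% in either direction. By role, 1 ligand rose and 2 fell of 11, 4 receptors rose of 19 and 3 adaptors rose of 9. Libraries of the groups did not overlap for 17 members that were higher and 6 that were lower, where 21.4% and 23% of all genes did so. The median log2 fold change stood at 0.50 for the 39 members and at -0.09 for all genes.

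Among ligands, Tnfsf11 (RANKL, the osteoclast and lymphoid organ factor that binds RANK, at chr14:78277445-78308043 in mm10) had 3.93, 4.72 and 6.18 CPM in RPF depleted, against 0, 0.0394 and 0.033 CPM in RPF steady. The groups did not overlap, and RPF steady held 3 counts in all. The ratio of counts summed by group and scaled to depth was 215. Its 95% counting interval of 73.3 to 1050 covers counting error only (log2 fold change 7.53, SE 0.64, edgeR adjusted p = 9.97e-05). Tnfsf13b (BAFF, the survival factor of B cells, at chr8:10006467-10039072) had 4.82, 4.23 and 10.03 CPM in RPF depleted, against 29.2, 26.6 and 33.9 CPM in RPF steady. Every RPF depleted library was below every RPF steady library, a 4.7-fold lower level (log2 -2.23, SE 0.31, edgeR adjusted p = 0.00105). Tnfsf12 (TWEAK, the ligand of Fn14, at chr11:69686250-69695849) had 2.93, 4.91 and 3.05 CPM in RPF depleted, against 8.76, 9.41 and 10.01 CPM in RPF steady. It was 2.59-fold lower with no overlap (log2 -1.37, SE 0.40, edgeR adjusted p = 0.0369). That call was lost without RPF depleted 1 (adjusted p = 0.112) or 3 (0.113), or without RPF steady 1 (0.0853), 2 (0.0993) or 3 (0.105), and Tnfsf12 overlaps the read-through gene Tnfsfm13 and the antisense gene Tnfsf13os.

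Tnf itself, the founding cytokine of the family, had 7.14, 15.3 and 13.7 CPM in RPF depleted, against 0.447, 0 and 0 CPM in RPF steady. All RPF depleted libraries were above all RPF steady libraries, and the single RPF steady library with Tnf counts was the one with few Y-linked counts. The difference did not pass the threshold (log2 fold change 6.27, SE 2.23, edgeR adjusted p = 0.0804), and it passed in DESeq2 (0.00341), in limma-voom (0.0275), in a fit of the 2 RPF groups alone (0.0181) and without FRC steady 2 (0.0333). Only RPF depleted, the group where Tnf was high, had every library above the filter, so these values are given as description. Tnfsf9 (4-1BBL, the ligand of 4-1BB) had 13.2, 17.3 and 20.4 CPM in RPF depleted, against 21.5, 14.5 and 10.8 CPM in RPF steady. Those groups overlapped (log2 0.12, adjusted p = 0.823). Tnfsf10 (TRAIL) had 2.32, 5.63 and 7.04 CPM in RPF depleted and 2.62, 1.32 and 3.44 CPM in RPF steady, which overlapped as well. Tnfsf13 (APRIL, a ligand of plasma cells) averaged 0.287 CPM in RPF depleted and 1.54 CPM in RPF steady (adjusted p = 0.126).

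Among receptors, Tnfrsf12a (Fn14, the receptor of TWEAK, at chr17:23675447-23677449) had 569, 493 and 438 CPM in RPF depleted, against 25.9, 11.3 and 7.8 CPM in RPF steady. The lowest RPF depleted library was far above the highest RPF steady library, and the level was 33.3-fold higher (log2 5.05, SE 0.43, edgeR adjusted p = 0.000103). Its ligand gene Tnfsf12 fell in the same libraries, as given above. Tnfrsf21 (DR6, a death domain receptor, at chr17:43016555-43089188) had 1520, 1126 and 784 CPM in RPF depleted, against 188, 189 and 169 CPM in RPF steady. It did not overlap and was 6.28-fold higher (log2 2.65, SE 0.23, edgeR adjusted p = 0.000101), and its 3 RPF depleted libraries spread more widely than those of RPF steady, at 1143 ± 368 CPM against 182 ± 11.5 CPM (SD, n = 3 each). Fas, the receptor of Fas ligand, had 104, 114 and 87.1 CPM in RPF depleted, against 29.1, 41 and 26.1 CPM in RPF steady. The groups did not overlap, at 3.17-fold higher (log2 1.66, SE 0.20, edgeR adjusted p = 0.000485).

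Both receptors of TNF were abundant in RPF. Tnfrsf1b (TNFR2, which binds membrane TNF and lacks a death domain) had 594, 704 and 667 CPM in RPF depleted, against 323, 242 and 230 CPM in RPF steady. It was 2.47-fold higher with no overlap (log2 1.31, SE 0.20, edgeR adjusted p = 0.0021). Tnfrsf1a (TNFR1, the death domain receptor of TNF) averaged 439 ± 27.1 CPM in RPF depleted and 364 ± 25.3 CPM in RPF steady (SD, n = 3 each). Its libraries did not overlap, but the difference did not pass the test (log2 0.27, adjusted p = 0.164), and whether the change of Tnfrsf1b differed from that of Tnfrsf1a was not tested. Ltbr, the lymphotoxin beta receptor, had 167, 164 and 178 CPM in RPF depleted and 152, 168 and 165 CPM in RPF steady, which overlapped (log2 0.07, adjusted p = 0.796). Tnfrsf14 (HVEM, a receptor of LIGHT) averaged 11.2 CPM in RPF depleted and 9.19 CPM in RPF steady (adjusted p = 0.686).

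Tnfrsf9 and Cd40, receptors best known from lymphocytes and antigen-presenting cells, were detected in every RPF depleted library but missed the threshold. Tnfrsf9 (4-1BB, known from activated T cells) had 31.2, 25.4 and 29.8 CPM in RPF depleted, against 0.957, 0 and 0 CPM in RPF steady. The groups did not overlap, and the RPF depleted libraries lay within 28.8 ± 3.00 CPM (SD, n = 3) (log2 6.45, SE 2.02, edgeR adjusted p = 0.0515). The adjusted p ranged from 0.000786 to 0.126 over 18 alternatives. It was 0.0219 without RPF steady 1, the library that held all 45 counts of that group. That removal left RPF steady at 0 counts, so its lower p adds no support. The gene overlaps Camta1, and it cleared the filter in all libraries of RPF depleted alone. Tnfrsf9 was thus testable only through the group where it was high. Cd40, the receptor of CD40 ligand, had 47.6, 55.4 and 57.2 CPM in RPF depleted, against 21.3, 14.0 and 14.9 CPM in RPF steady. It did not overlap, at 3.19 times the steady level (log2 1.67, SE 0.60, edgeR adjusted p = 0.082), and passed in 6 of the 18 alternatives, with adjusted p from 0.000644 to 0.216. Tnfrsf11a (RANK, the receptor of RANKL) had 3.3, 0 and 0 CPM in RPF depleted, against 4.68, 14.7 and 7.11 CPM in RPF steady (adjusted p = 0.34). The adjusted p was 0.0172 in limma-voom, and 0.00873 without RPF depleted 1, the library that held all of that group's counts. That removal left RPF depleted at 0 counts, so its lower p adds no support. RANK cleared the filter in all libraries of RPF steady alone, again the group where it was high. T cell, NK and innate lymphoid markers summed to 0.9468 to 1.873 CPM in RPF depleted, with 4 of 8 at 0 counts, against 2.214 to 3.445 CPM in RPF steady, with 1 of 8 at 0. Monocyte and dendritic cell markers summed to 604 to 711.3 CPM in RPF depleted, with 3 of 9 at 0 counts, against 358 to 532.4 CPM in RPF steady, with 1 of 9 at 0. Their members did not move together: Plac8 averaged 534 CPM in RPF depleted and 302 CPM in RPF steady (adjusted p = 0.0374), Zbtb46 108.9 and 108.4 CPM in the same groups (0.991), and Lyz2 9.39 and 28.2 CPM (0.0373). The part of these cells in the values of Tnfrsf9, Cd40 and Tnf was not tested.

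**Figure D2:**
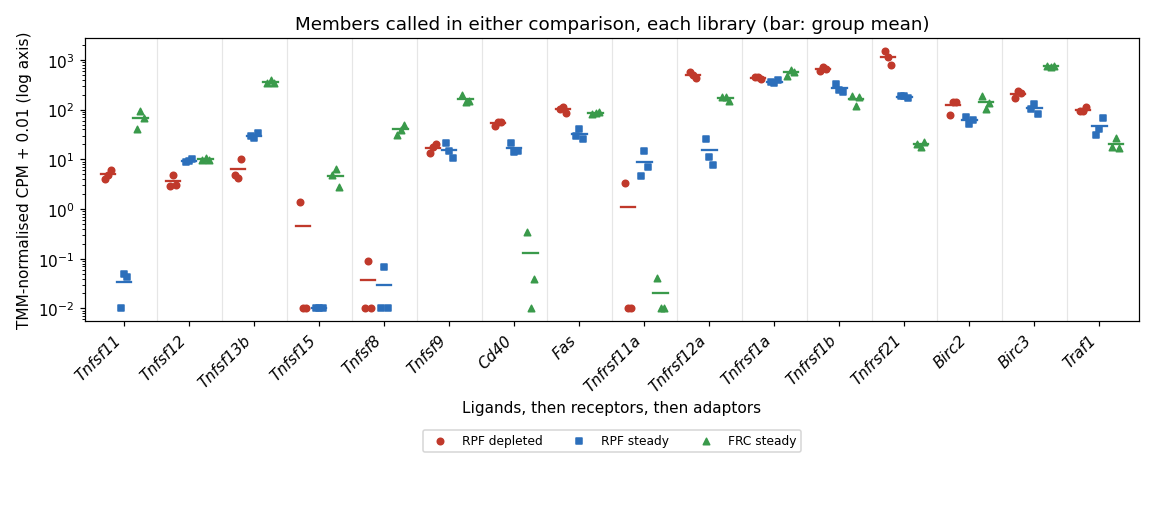
CPM of the 16 members called in either comparison in each of the 9 libraries, on a log axis with 0.01 added, with groups marked RPF depleted, RPF steady and FRC steady; each point is 1 library pooling 2 mice and each bar a group mean. Tnfrsf12a has 438 to 569 CPM in RPF depleted, 7.8 to 25.9 in RPF steady and 149 to 180 in FRC.

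All 3 called adaptors rose. Birc3 (cIAP2, a ubiquitin ligase of receptor complexes and itself a known NF-kB target) had 171, 232 and 219 CPM in RPF depleted, against 104, 131 and 82.9 CPM in RPF steady. The groups did not overlap (1.96-fold higher, log2 0.97, SE 0.18, edgeR adjusted p = 0.0048). Birc2 (cIAP1, its relative) had 76.8, 140 and 145 CPM in RPF depleted, against 70.8, 52.0 and 61.7 CPM in RPF steady. Its lowest RPF depleted library was just above the highest RPF steady one (1.96-fold, SE 0.29, adjusted p = 0.041), and the call was lost without RPF depleted 2 (0.128) or 3 (0.132), RPF steady 1 (0.0709), 2 (0.141) or 3 (0.114), or FRC steady 3 (0.0585). Traf1, an adaptor that joins TRAF2 and the cIAPs, had 94.3, 93.3 and 111 CPM in RPF depleted, against 30.2, 40.4 and 68.4 CPM in RPF steady. It did not overlap (2.15-fold higher, SE 0.31, adjusted p = 0.0346), and the call was lost without RPF depleted 1 (0.0761), 2 (0.0733) or 3 (0.102), or RPF steady 1 (0.099) or 2 (0.121). The other 6 adaptors were not called. Traf2, the core adaptor of TNFR1 and TNFR2, averaged 84.7 CPM in RPF depleted and 78.6 CPM in RPF steady (log2 0.11, adjusted p = 0.7), and Traf3, a brake on the alternative NF-kB pathway, averaged 66.3 and 36.9 CPM in the same groups (log2 0.84, adjusted p = 0.204). Traf4, Traf5, Traf6 and Traf7 had log2 fold changes of 0.87, 0.33, 0.16 and 0.50.

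Several low members were detected unevenly across libraries, and none of them was called. Tnfrsf10b (the mouse TRAIL receptor) had 0.172, 1.75 and 4.01 CPM in RPF depleted, against 0.149, 0 and 0 CPM in RPF steady (adjusted p = 0.0875). Ltb, the lymphotoxin subunit that binds the lymphotoxin beta receptor, had 0.201, 0 and 0 CPM in RPF depleted, against 0.957, 1.36 and 0.496 CPM in RPF steady (adjusted p = 0.207). Neither pair overlapped, but Ltb cleared the filter in all libraries of RPF steady alone, the group where it was high. Tnfrsf10b cleared it so in FRC alone, and the values of both genes are given as description. Tnfrsf8 (CD30) had 0.603, 0 and 2.07 CPM in RPF depleted and 0 counts in RPF steady and in FRC, read in too few libraries to be tested. The receptors Tnfrsf4 (OX40), Tnfrsf18 (GITR) and Tnfrsf19 averaged 0.899, 0.272 and 0.937 CPM in RPF depleted, none of them called. The ligands Tnfsf4 (OX40L) and Tnfsf14 (LIGHT) had 0 counts in both RPF groups and averaged 0.435 and 1.52 CPM in FRC, and Tnfsf18 (GITRL) averaged at most 1.09 CPM in any group.

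**Figure D3:**
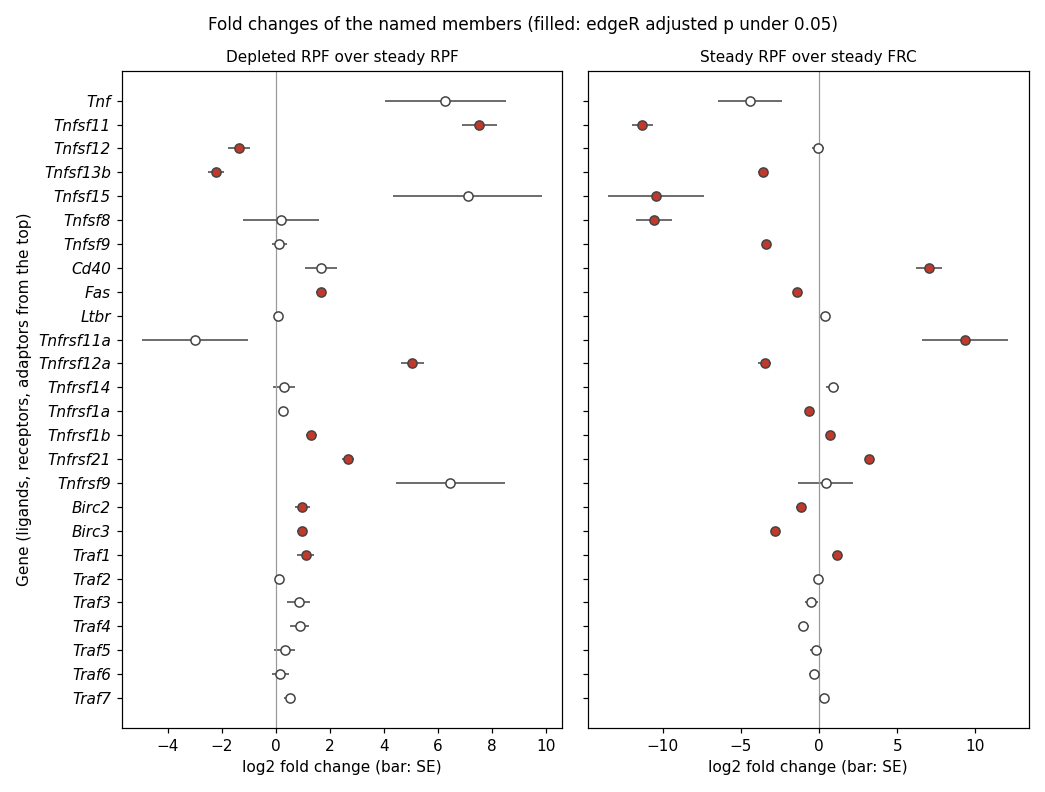
log2 fold changes of the named members with their standard errors, for RPF depleted over RPF steady and for RPF steady over FRC steady, filled where the edgeR adjusted p was under 0.05. Tnfsf11 and Tnfrsf12a lie at 7.53 and 5.05 in the depletion comparison and at -11.30 and -3.49 against FRC, and both comparisons share the RPF steady libraries.

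The second comparison asked how splenic RPF and lymph node FRC differ in untreated mice. The ligands RANKL, BAFF, 4-1BBL, CD30L and TL1A were lower in RPF steady, while DR6, TNFR2, CD40 and RANK among receptors were higher. CD30L and TL1A cleared the filter in FRC alone, and RANK in RPF steady alone, so these were testable only through the group where they were high. Of the 39 members, 5 were higher and 10 lower in RPF steady, beside 11.5% of all genes higher, 14.4% lower and 25.9% in either direction. By role, 5 of 11 ligands were lower and 6 not called, 4 of 19 receptors were higher and 3 lower, and 1 of 9 adaptors was higher and 2 lower. Without overlap of libraries, 8 members were higher and 11 lower, beside 21.5% and 23.1% of all genes. The median log2 fold change stood at -0.51 for the members and at -0.02 for all genes. Tissue, tdTomato sorting and cell type differ together here and cannot be told apart.

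Tnfsf11 had 0, 0.0394 and 0.033 CPM in RPF steady, against 40.2, 95 and 67.3 CPM in FRC. The ratio was 2830-fold lower in RPF steady, with a 95% counting interval of 970 to 13800 (SE 0.68 on the log2 scale, edgeR adjusted p = 5.58e-06). The RPF depleted libraries, at 4.94 ± 1.14 CPM, were thus below the FRC libraries, at 67.5 ± 27.4 CPM (SD, n = 3 each), a pair that was not tested. Tnfsf8 (CD30L, the ligand of CD30) had 0, 0.0592 and 0 CPM in RPF steady, against 30.4, 39.6 and 49.2 CPM in FRC. With 3 counts in RPF steady its ratio was 1700-fold lower (interval 581 to 8240, adjusted p = 0.000178), and RPF depleted also held 3 counts, so no fold was given there. Tnfsf13b had 29.2, 26.6 and 33.9 CPM in RPF steady, against 334, 398 and 343 CPM in FRC, 12.0-fold lower without overlap (log2 -3.59, SE 0.32, adjusted p = 5.29e-05).

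Tnfsf9 had 21.5, 14.5 and 10.8 CPM in RPF steady, against 195, 139 and 148 CPM in FRC. The groups lay 10.3-fold apart without overlap (log2 -3.37, SE 0.30, edgeR adjusted p = 5.57e-05). Tnfsf15 (TL1A, the ligand of DR3) was at 0 counts in RPF steady, against 4.79, 6.37 and 2.77 CPM in FRC. It was at least 195-fold lower in RPF steady by a floor of 3 counts over the group (adjusted p = 0.0454), and the call was lost with any single RPF steady or FRC library left out, at adjusted p of 0.0744 to 0.106. Tnfsf12 did not differ by the test (log2 -0.10, adjusted p = 0.892). T cell, NK and innate lymphoid markers summed to 2.214 to 3.445 CPM in RPF steady, against 9.511 to 18.74 CPM in FRC with 4 of 8 at 0 counts, Trac leading at 13.3 CPM on average. B cell and plasma cell markers summed to 182.3 to 377.2 CPM in RPF steady, against 334.3 to 430.9 CPM in FRC. Their part in the ligand differences was not tested.

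Receptors differed in both directions. Tnfrsf21 had 188, 189 and 169 CPM in RPF steady, against 20.1, 17.5 and 21.9 CPM in FRC, 9.18-fold higher without overlap (log2 3.20, SE 0.23, edgeR adjusted p = 1.56e-05). Cd40 had 21.3, 14.0 and 14.9 CPM in RPF steady, against 0.334, 0 and 0.0298 CPM in FRC, 138-fold higher (log2 7.04, SE 0.82, adjusted p = 0.000274). Tnfrsf11a had 4.68, 14.7 and 7.11 CPM in RPF steady, against 1 count in all 3 FRC libraries. Its ratio was 885-fold higher with a 95% counting interval of 159 to 35000 (adjusted p = 0.0363), a call lost with any single RPF steady or FRC library left out (0.0638 to 0.1). The receptor RANK was thus read in RPF steady and its ligand RANKL in FRC. Tnfrsf1b had 323, 242 and 230 CPM in RPF steady, against 189, 117 and 180 CPM in FRC, 1.64-fold higher (SE 0.20, adjusted p = 0.0306), and the call was lost without RPF steady 1 (0.104) or 2 (0.0539) or FRC steady 2 (0.0606). Monocyte and dendritic cell markers summed to 358 to 532.4 CPM in RPF steady, against 201.5 to 276.8 CPM in FRC. Neutrophil markers summed to 47.26 to 350 and 0.9886 to 6.55 CPM in the same groups. Red pulp macrophage markers were higher in RPF steady too, as given above. Fibroblast and reticular stroma markers summed to 6615 to 7703 CPM in RPF steady, against 55110 to 59530 CPM in FRC. Of these 10, 8 were called lower in RPF steady and 1 higher. The part of these cells in the receptor differences was not tested.

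Lower in RPF steady were Tnfrsf12a, Fas and Tnfrsf1a. Tnfrsf12a had 25.9, 11.3 and 7.8 CPM in RPF steady, against 179, 180 and 149 CPM in FRC, 11.3-fold lower without overlap (log2 -3.49, SE 0.40, edgeR adjusted p = 0.000264). Fas averaged 32.1 ± 7.87 CPM in RPF steady and 85.3 ± 4.43 CPM in FRC (SD, n = 3 each), 2.66-fold lower (adjusted p = 0.000769). Tnfrsf1a had 355, 344 and 392.5 CPM in RPF steady, against 482, 635 and 568 CPM in FRC, 1.54-fold lower without overlap (SE 0.12, adjusted p = 0.0055). Ltbr averaged 161 CPM in RPF steady and 123 CPM in FRC and was not called (log2 0.40, adjusted p = 0.0774), though upper quartile scaling (0.0171), the Y-linked term (0.0391), DESeq2 (0.0361) and leaving out FRC steady 3 (0.0477) brought it under the threshold. Receptors of B cells, Tnfrsf13b, Tnfrsf13c and Tnfrsf17, averaged under 1 CPM in every group. Tnfrsf22, Tnfrsf23 and Tnfrsf26 are neighbouring, similar genes on chromosome 7 whose reads the counting could split, and none was called in either comparison.

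Among adaptors, Birc3 had 104, 131 and 82.9 CPM in RPF steady, against 754, 715 and 752 CPM in FRC. It was 6.998-fold lower without overlap (log2 -2.81, SE 0.19, edgeR adjusted p = 1.03e-05). Birc2 averaged 61.5 CPM in RPF steady and 139.6 CPM in FRC, 2.27-fold lower (adjusted p = 0.0157), a call lost without RPF steady 2 (0.0654) or 3 (0.0558) or FRC steady 1 (0.0512). Traf1 averaged 46.3 CPM in RPF steady and 20.7 CPM in FRC, 2.24-fold higher (adjusted p = 0.0244), a call lost without RPF steady 3 (0.0751) or FRC steady 1 (0.0736) or 3 (0.0763). Traf2 averaged 78.6 CPM in RPF steady and 81.6 CPM in FRC, and TRAF genes other than Traf1 were not called.

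Side by side, 16 members were called in at least 1 comparison. Because both comparisons use the RPF steady libraries, a low or high value there moves both in opposite directions, and their patterns are not independent. No share of all genes with the same patterns is given, so the counts below are description only. Higher in RPF depleted than in RPF steady, and lower in RPF steady than in FRC, were 5 members: Tnfsf11, Tnfrsf12a, Fas, Birc2 and Birc3. Higher in both comparisons were 3, Tnfrsf21, Tnfrsf1b and Traf1, with Tnfrsf21 at 1143 CPM in RPF depleted, 182 in RPF steady and 19.8 in FRC. Tnfsf13b was lower in both, at 6.36 CPM in RPF depleted, 29.9 in RPF steady and 359 in FRC.

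Downstream genes were read from lists of the pathway, which were chosen with earlier results of these data known. Of 10 canonical NF-kB genes, 9 rose in RPF depleted and Ikbkg was not called (median log2 change 1.49, beside -0.09 over all genes, of which 11.1% were called higher). Against FRC, 8 were lower in RPF steady (median -2.07, beside -0.02 over all genes, of which 14.4% were called lower). Nfkbia, the inhibitor that NF-kB itself induces, had 1085, 1263 and 1164 CPM in RPF depleted, against 309, 140 and 196 CPM in RPF steady. The groups did not overlap (5.44-fold higher, log2 2.44, SE 0.26, edgeR adjusted p = 0.000279), and FRC held 2030, 2099 and 2413 CPM, with RPF steady 10.1-fold lower (adjusted p = 2.73e-05). Rela, the p65 subunit, had 352, 474 and 369 CPM in RPF depleted, 158, 137 and 134 CPM in RPF steady and 482, 469 and 522 CPM in FRC. It was 2.79-fold higher in RPF depleted than in RPF steady (adjusted p = 0.000154) and 3.44-fold lower in RPF steady than in FRC (adjusted p = 2.39e-05). Nfkb1, the p105 precursor of p50, had 169, 164 and 123 CPM in RPF depleted, 55.7, 46.5 and 41.3 CPM in RPF steady and 234, 283 and 222 CPM in FRC, with no overlap between groups. It was 3.18-fold higher in RPF depleted (adjusted p = 0.000296) and 5.15-fold lower in RPF steady than in FRC (adjusted p = 2.11e-05). Of 4 alternative pathway genes, Nfkb2 and Relb rose in RPF depleted, at 3.68-fold (adjusted p = 0.00037) and 2.83-fold (adjusted p = 0.000329), and Relb was 3.29-fold lower in RPF steady than in FRC (adjusted p = 8.28e-05). Map3k14 (NIK, the kinase that starts that pathway) had 6.03, 15.9 and 10.2 CPM in RPF depleted and 8.34, 8.26 and 8.96 CPM in RPF steady, which overlapped (log2 0.33, adjusted p = 0.541). It was 7.10-fold lower in RPF steady than in FRC (adjusted p = 0.000326).

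**Figure D4:**
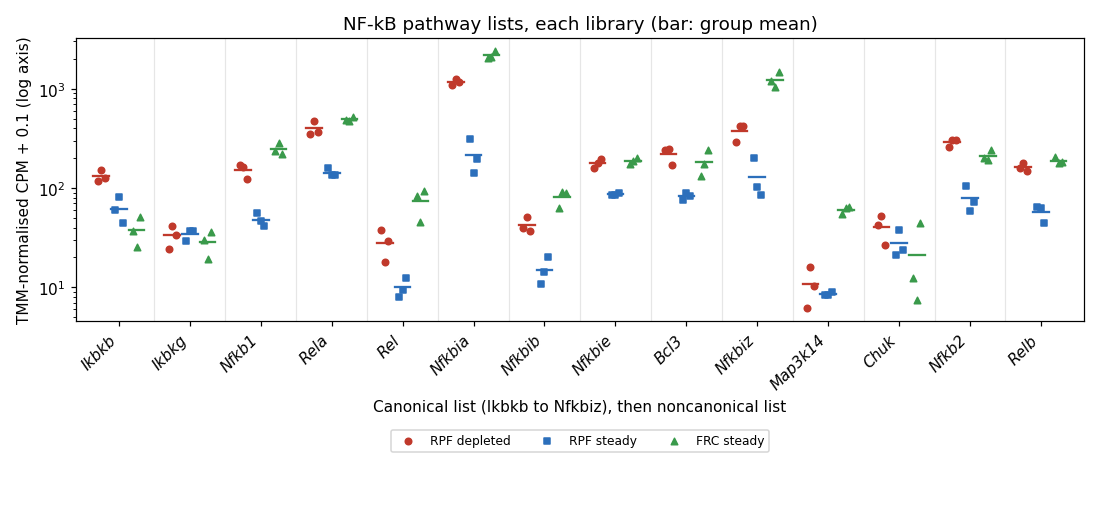
CPM of NF-kB pathway genes in each of the 9 libraries (points, with bars at group means), on a log axis with 0.1 added, in the groups RPF depleted, RPF steady and FRC steady. Nfkbia has 1085 to 1263 CPM in RPF depleted, 140 to 309 in RPF steady and 2030 to 2413 in FRC.

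Of 19 genes listed for the receptor complex, its ubiquitin editing and related genes, 3 rose and 1 fell in RPF depleted. These shares of the list stand near the 11.1% and 9.96% of all genes called. Tnip1 and Tnfaip3 (A20), which restrain signalling at the complex, rose 5.59-fold (edgeR adjusted p = 4.04e-05) and 7.32-fold (adjusted p = 0.000298), and Tank, an adaptor that binds TRAFs, rose 1.83-fold (adjusted p = 0.0085). Tab1, a partner of the kinase TAK1, had 9.73, 16.7 and 14.6 CPM in RPF depleted, against 42.7, 43.5 and 38.9 CPM in RPF steady, 3.05-fold lower (adjusted p = 0.0015). In RPF steady against FRC, 2 of these 19 were higher and 5 lower, Tnfaip8 being 18.02-fold higher (adjusted p = 9.68e-07) and Tnfaip3 and Tnip1 10.99-fold and 4.67-fold lower (adjusted p = 5.91e-05 and 1.88e-05). Tab1 was 1.90-fold higher (adjusted p = 0.0184), a call lost without RPF steady 1 (0.062) or 2 (0.0632) or FRC steady 2 (0.0509). Of all genes, 11.5% were called higher and 14.4% lower there. Of 11 death receptor genes, 4 rose in RPF depleted, where 11.1% of all genes did. Ripk3, the kinase of necroptosis, had 46.3, 78.4 and 90.3 CPM in RPF depleted, against 7.95, 11.4 and 17 CPM in RPF steady (5.92-fold higher, adjusted p = 0.0011). Bax, which acts at the mitochondrion, rose 2.34-fold (adjusted p = 0.00183). Mlkl, which RIPK3 phosphorylates, and Bid, which links caspase-8 to the mitochondrion, rose 1.97-fold (adjusted p = 0.0395) and 1.89-fold (adjusted p = 0.0351), and the alternatives were not run for them. The initiator genes Casp8 and Fadd were not called (adjusted p = 0.903 and 0.578). Against FRC, RPF steady had 3 of the 11 higher (Bax, Cflar and Bid) and 1 lower (Ripk3, 3.39-fold), beside 11.5% and 14.4% of all genes. The call of Cflar was lost without RPF steady 1 (0.0786), 2 (0.0657) or 3 (0.0565) or FRC steady 1 (0.0549) or in a fit of the RPF steady and FRC libraries alone (0.0514), and that of Bax without RPF steady 3 (0.0606) or FRC steady 1 (0.0507) or 3 (0.0511).

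Of 5 genes that cleave or process family proteins, 3 rose and 1 fell in RPF depleted, beside 11.1% and 9.96% of all genes. Rhbdf2 (iRhom2, the partner that brings the TNF sheddase ADAM17 to the surface) had 217, 154 and 147 CPM in RPF depleted, against 21.9, 24.9 and 17.1 CPM in RPF steady. It did not overlap and was 8.11-fold higher (log2 3.02, SE 0.21, edgeR adjusted p = 4.35e-05), and it was 4.08-fold lower in RPF steady than in FRC (adjusted p = 9.68e-05). Its relative Rhbdf1 (iRhom1) was 2.45-fold higher in RPF depleted (adjusted p = 0.000837) and 1.83-fold lower in RPF steady than in FRC (adjusted p = 0.00498). Adam10, another sheddase, was 1.78-fold lower in RPF depleted (adjusted p = 0.00704) and 2.22-fold higher in RPF steady than in FRC (adjusted p = 0.000946). Among 7 tested relatives outside the name rule, Relt, an orphan receptor, was 4.67-fold higher in RPF depleted (adjusted p = 0.0213), a call lost without RPF depleted 1 or RPF steady 1 or 3 (0.0725 to 0.0797) and in limma-voom (0.1). It was 14.3-fold lower in RPF steady than in FRC (adjusted p = 0.00147). Edar, the ectodysplasin receptor, had 0 counts in RPF depleted, against 6.38, 2.84 and 5.55 CPM in RPF steady, at least 186-fold lower by the 3-count floor (adjusted p = 0.018). Only RPF steady, the group where Edar was high, had every library above the filter, with FRC at 4.88, 1.67 and 0.0298 CPM. Against FRC, RPF steady had Edaradd, the adaptor of Edar, at least 60.2-fold higher (adjusted p = 0.00527) and Ngfr, the p75 neurotrophin receptor, 8.55-fold lower (adjusted p = 0.00102).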

How the data were processed

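The deposited table holds raw counts per gene for 9 polyA RNA libraries on mm10. Per the submitters' processing notes, the tools were HTSeq 0.6.1p1, STAR 2.5.3a, Bowtie2 2.2.8 and cutadapt 1.10, with no role given. No label or header gives a strand setting or annotation release, and 7 members overlap an antisense gene, whose reads cannot be told apart. Another 24 per-sample columns of the table were not used.

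Counts were tested with edgeR 4.0.16 (R 4.3.3): filterByExpr, TMM, robust quasi-likelihood fit of all 9 libraries by group with 6 residual degrees of freedom, two-sided, Benjamini-Hochberg adjustment over 15103 tested genes, called under 0.05. Of all genes, 881 had 0 counts. The fit was also run on simulated data, whose changed genes left out those of low mean count. That run therefore did not cover members near 0 counts. CPM, ratios, 95% Poisson intervals and 3-count floors were computed from the counts. Marker sums were compared by exact permutation, whose smallest p is 0.1. Alternatives used DESeq2 1.42.0, limma 3.58.1, other scalings, filters and samples. Members and lists were chosen with earlier results of these data known. Text names members called in either comparison or averaging at least 10 CPM in a group, and in each pathway list the 2 called genes of lowest p per direction. The others named, with the promoters printed, were chosen after their values were seen. Promoters come from RefSeq GRCm38.p6.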

Additional observations from a re-analysis of the deposited data

How the results depend on the processing

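Leaving out each of the 9 libraries in turn gave 2144 to 3290 genes called between RPF depleted and RPF steady, beside 3176 with all, and 7 to 13 members, beside 10. Between RPF steady and FRC it gave 2838 to 3706 genes, beside 3908, and 11 to 16 members, beside 15. The other 9 settings moved none of these counts by more than 1.5 times. Of 26 named members tested, 10 were called after depletion, 7 of them in each of the 18 alternatives run, and 6 of the 16 uncalled ones were called in some alternative. Against FRC 15 were called, 10 of them in each alternative, and 3 of 11 uncalled ones were called in some. No named member reversed its direction while called. Upper quartile scaling moved the median log2 fold change of all genes from -0.0218 to 0.139 between RPF steady and FRC, and it ended the depletion calls of Birc2 (adjusted p = 0.0643) and Traf1 (0.054). The term for libraries with few Y-linked counts ended those of Traf1 (0.0552) and Tnfsf12 (0.0637) after depletion and those of Tnfsf15 (0.0723) and Tnfrsf11a (0.0567) against FRC. Testing without a filter ended that of Tnfsf12 (0.125). The cause was not tested. No paired analysis was possible because replicate numbers follow accession order and, though untreated RPF and FRC share mice, which libraries do is not labelled. Tnfsf4, Tnfsf14, Tnfrsf8 and Tnfrsf17 did not pass the filter, so their differences were not tested. Tnfsf4 held 43, 0 and 0 counts and Tnfsf14 1, 128 and 6 counts in FRC. Tnfrsf8 held 21, 0 and 93 counts in RPF depleted, and Tnfrsf17 at most 4 counts in any library.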
